A study of Mus musculus with 2 samples.

Results

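The membrane-bound mucins Muc1, Muc3, Muc4, Muc13 and Muc20 were followed across the cell types of the chronically inflamed mouse colon. The 5 genes were taken by their exact symbols from the 32285 genes of the count tables, and their levels played no part in how the nuclei were clustered or named. All 5 were detected, but over a wide range, from 21775 molecules of Muc13 to 2 of Muc20 in the WT library.

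Colon tissue was snap-frozen and its nuclei were sequenced in 2 libraries with a 3′ droplet assay that counts unique molecular identifiers (UMIs), so that each captured RNA molecule is counted once. The WT library came from wild-type mice and the KO library from Ncr1cre+ Hif-1α fl/fl mice (HIF-1α KO), each as a pool of 3 animals. All mice were 8 to 12 weeks old, of a colony listed as C57BL/6J, and had received 2% dextran sodium sulfate (DSS) in 4 cycles of 3 d with 4 d of recovery up to day 28, so no untreated colon was measured. In the KO mice Cre is driven by the promoter of Ncr1 (NKp46), a receptor of natural killer cells and innate lymphoid cells, and epithelial cells are not the cells in which Hif1a is deleted.

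After the filters, 4884 WT and 4702 KO nuclei remained, with a median of 2058.5 and 4197 UMIs per nucleus, and 3 barcodes were found in both libraries. Hif1a itself was at 172 counts per 1000000 UMIs (CPM) in WT and 199 in KO, and Ncr1 had 1 and 0 UMIs, so the deletion in NKp46+ cells could not be checked in these nuclei. With 1 library per genotype there was no spread between animals and no test. All intervals given are exact 95% intervals that cover counting error only, and a sum over all nuclei cannot separate fewer cells of a type from less RNA per cell.

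Membrane-bound mucins are large glycoproteins that sit in the apical membrane of epithelial cells, with an extracellular part covered in O-linked sugars and a short tail in the cytoplasm. Together with secreted mucins such as Muc2, the main component of the mucus gel made by goblet cells, they cover the surface of the colon. Muc3 and Muc13 form much of the glycocalyx on the brush border of enterocytes, Muc4 can bind the receptor ErbB2, and Muc1 carries a tail that is phosphorylated and takes part in signaling.

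By the GENCODE M21 annotation of GRCm38, 3 of the 5 genes lie on chromosome 16. Muc4 is at chr16:32735886-32782391 on the plus strand, and Muc20 at chr16:32777419-32797435 on the minus strand overlaps its end by 4973 bases. Muc13 follows at chr16:33794037-33819934 on the plus strand. Muc1 is at chr3:89229057-89233381 on the plus strand and Muc3 at chr5:137134922-137149322 on the minus strand.

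The 250 bases before the RefSeq start (the first of 2 for Muc13) of the 4 members with more than a few molecules are shown here, since the members differed in the cell types that held them. They are on GRCm38.p6, 5′ to 3′ in the direction of transcription, at chr16:33793787-33794036 (plus) for Muc13, chr5:137166047-137166296 (minus) for Muc3, chr16:32735636-32735885 (plus) for Muc4 and chr3:89228806-89229055 (plus) for Muc1. Capitals mark the motifs that were searched on both strands.
Muc13: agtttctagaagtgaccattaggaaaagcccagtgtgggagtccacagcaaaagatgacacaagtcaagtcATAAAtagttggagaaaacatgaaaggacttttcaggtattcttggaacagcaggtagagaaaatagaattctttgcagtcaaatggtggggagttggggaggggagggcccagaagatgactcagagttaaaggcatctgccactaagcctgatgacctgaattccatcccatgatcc
Muc3: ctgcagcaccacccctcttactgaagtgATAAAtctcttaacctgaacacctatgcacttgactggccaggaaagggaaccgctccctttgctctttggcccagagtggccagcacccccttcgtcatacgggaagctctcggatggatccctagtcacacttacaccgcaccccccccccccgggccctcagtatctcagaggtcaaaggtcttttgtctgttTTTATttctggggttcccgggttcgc
Muc4: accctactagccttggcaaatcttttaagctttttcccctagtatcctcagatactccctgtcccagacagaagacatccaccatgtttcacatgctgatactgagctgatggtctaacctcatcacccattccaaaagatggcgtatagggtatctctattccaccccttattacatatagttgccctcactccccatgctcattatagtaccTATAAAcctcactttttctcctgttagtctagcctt
Muc1: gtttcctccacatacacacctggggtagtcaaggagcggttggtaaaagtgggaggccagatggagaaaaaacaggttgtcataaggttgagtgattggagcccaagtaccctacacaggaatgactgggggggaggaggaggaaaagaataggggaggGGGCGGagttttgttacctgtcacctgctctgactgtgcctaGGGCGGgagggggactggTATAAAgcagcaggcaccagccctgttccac

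The motifs were the TATA box (TATAAA), the GC box (GGGCGG), the core of caudal-type homeobox sites (TTTAT) and the core of the hypoxia response element (ACGTG). The variant GCGTG was counted as the same core. TATAAA holds the reverse complement of TTTAT, so the capitals of these motifs overlap. Muc4 and Muc1, which were both highest in goblet-like nuclei, had TATAAA 36 and 31 bases before the start, a match that 12.4% of all promoters in the table had. Muc1 also had GGGCGG 91 and 49 bases before the start, against 32.7% of all promoters with at least 1. The caudal core alone stood 26 and 222 bases before the start of Muc3 and 179 bases before that of Muc13, and 37.3% of promoters held it. RefSeq gives Muc13 a second start at 33794489, whose window (chr16:33794239-33794488) held none of the motifs. No member held the hypoxia core in this window, which 38.6% of promoters did. A match is a run of letters and not a binding site.

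The RefSeq start of Muc3, at 137166046, lies beyond the end of the GENCODE gene, within a separately annotated and counted long noncoding RNA on the same strand, Gm3054 (chr5:137154029-137166070). A near-copy, Muc3a, lies 59490 bases from Muc3 at chr5:137208813-137212389, and reads of the copies could have been split between them. Values for Muc3 are therefore those of the feature as counted, and the neighbours are given beside it.

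The nuclei fell into 24 clusters, of which 22 could be named from marker genes. The 10 classes with at least 50 nuclei in both libraries were crypt base stem-like, cycling crypt-like, enterocyte-like nuclei marked by Cftr and Htr4, enterocyte-like nuclei marked by Gsdmc and Cyp2c genes, absorptive enterocyte-like nuclei of the surface, goblet-like, enteroendocrine-like, fibroblast-like, smooth muscle-like and immune-like. The 2 unnamed clusters, led by Taco1, AY036118 and ribosomal protein genes among others, held 24.6% of WT and 9.40% of KO nuclei. Goblet-like nuclei made up 12.2% of WT and 20.4% of KO nuclei, and absorptive-like nuclei 10.8% and 17.9%. The 13 goblet markers summed to 17504 CPM in WT and 15475 CPM in KO goblet-like nuclei, and the 10 absorptive markers to 6482 and 8672 CPM in absorptive-like nuclei. The 6 markers of the Cftr and Htr4 class summed to 4111 and 4131 CPM in that class. In stem-like nuclei they summed to 3284 and 4339 CPM, so in KO they did not set the class apart from stem-like nuclei.

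Fibroblast-, smooth muscle-, immune-, endothelial- and lymphatic endothelial-like nuclei should lack these mucins, so their pooled level was taken as the background (844 WT and 608 KO nuclei, median depth 1823.5 and 1991.5 UMIs). This level depended on depth. Up to the median depth and above it, Muc3 was at 460 and 262 CPM in WT and at 835 and 388 CPM in KO. Muc13 was at 910 and 767 CPM in WT and at 1287 and 725 CPM in KO. The epithelial-like classes were deeper, and the part of depth in the folds over the background was not tested. Over this background, Muc13 stood out in absorptive- and goblet-like nuclei, Muc3 in absorptive-like nuclei, and Muc4 and Muc1 in goblet-like nuclei.

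Muc13, a short mucin of the brush border and of goblet cells, was the most abundant member. It had 21775 UMIs or 1642 CPM in WT and 45108 UMIs or 1911 CPM in KO. Among the named classes its level was highest in absorptive-like nuclei, with 3457 CPM in WT (interval 3380 to 3536) and 3324 CPM in KO (3278 to 3370), followed by goblet-like nuclei with 2145 and 1904 CPM. These were 4.26-fold and 3.82-fold above the background of 812 CPM in WT and 869.8 CPM in KO for absorptive-like nuclei, and 2.64-fold and 2.19-fold for goblet-like nuclei.

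Along the other enterocyte classes Muc13 was lower. It reached 1399 and 1428 CPM in WT and KO in the Gsdmc and Cyp2c class, 1199 and 1371 CPM in the Cftr and Htr4 class, 1077 and 1183 CPM in cycling nuclei, and 1002 and 1332 CPM in stem-like nuclei. In WT each of these was above the background by its interval, but the intervals of stem-like (927 to 1082) and cycling nuclei (1027 to 1129) overlapped. Enteroendocrine-like nuclei, at 749 and 781 CPM, were not above the background in either library. Unnamed nuclei held 1365 and 1516 CPM.

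Shares of nuclei at equal depth kept absorptive-like nuclei first, but did not set goblet-like nuclei apart from the Gsdmc and Cyp2c class. Thinned to 1000 UMIs per nucleus, which left out 63 KO nuclei and no WT nucleus, Muc13 was found in 87.1% of absorptive-like nuclei of the WT and 90.8% of those of the KO library. In the goblet-like class the shares were 77.5% (73.9 to 80.8) and 76.9% (74.0 to 79.5). The Gsdmc and Cyp2c class overlapped these, at 75.9% (71.2 to 80.1) and 73.3% (69.4 to 77.1). In the background nuclei Muc13 was found in 51.3% and 59.7%. Without thinning the shares were 98.5% in WT and all nuclei in KO for the absorptive-like class, 93.6% and 98.1% for the goblet-like class and 75.4% and 84.7% for the background, at median depths of 3535.5 and 5949 UMIs in absorptive-like, 2538 and 4616.5 in goblet-like and 1823.5 and 1991.5 in background nuclei. The median absorptive-like nucleus held 9 Muc13 UMIs in WT and 16 in KO, and the highest held 133 and 152.

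**Figure D1:**
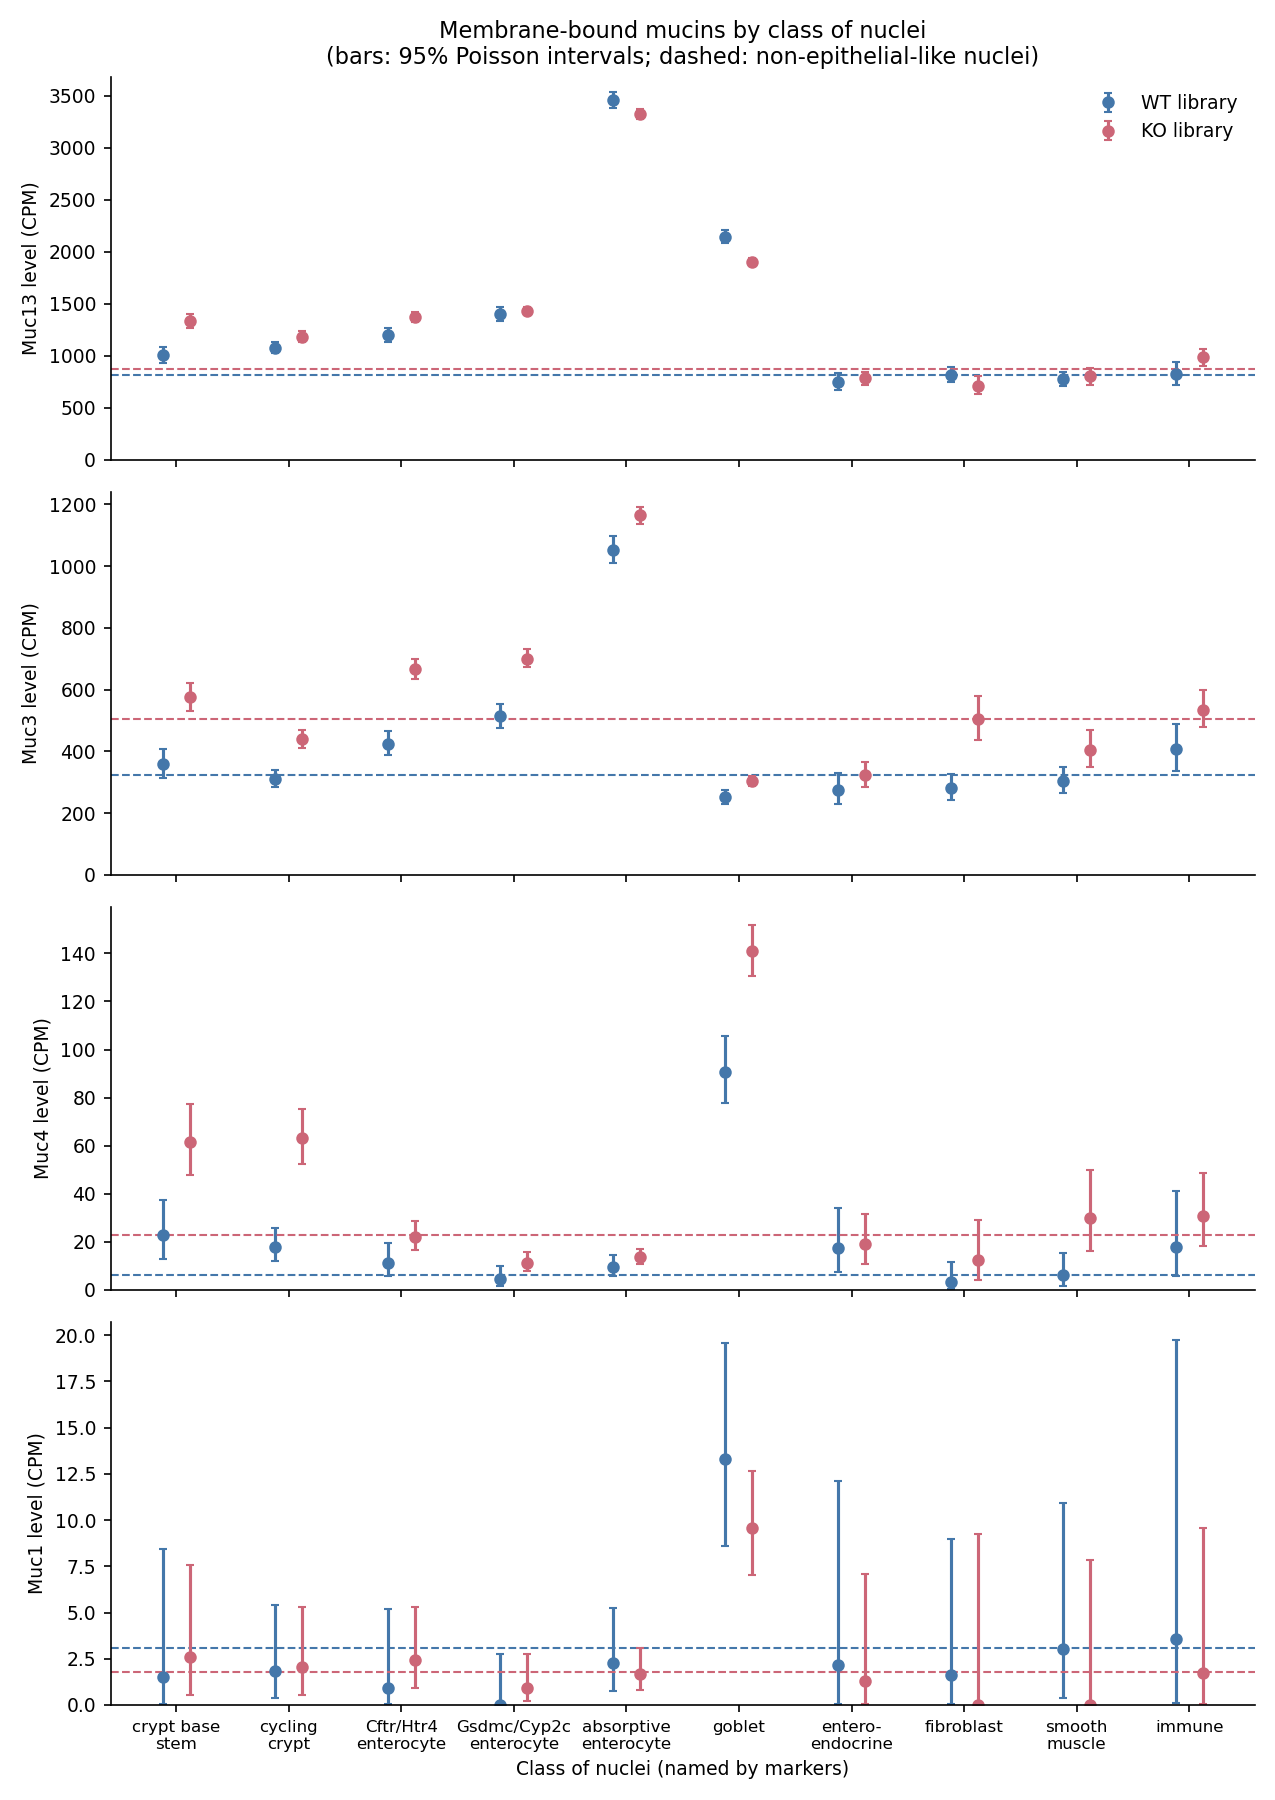
Level of Muc13, Muc3, Muc4 and Muc1 (CPM, linear axes from 0) in 10 classes of nuclei, with WT in blue and KO in red, exact Poisson intervals as bars and the level in non-epithelial-like nuclei as dashed lines. Muc13 peaks in absorptive- and goblet-like nuclei (3457 and 2145 CPM in WT), Muc3 in absorptive-like nuclei (1053 CPM in WT), and Muc4 and Muc1 in goblet-like nuclei (90.8 and 13.3 CPM in WT).

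Muc3, a large mucin of the enterocyte brush border, was the second most abundant member, with 6628 UMIs (499.9 CPM) in WT and 16033 UMIs (679 CPM) in KO. Among the named classes it was highest in absorptive-like nuclei, at 1053 CPM in WT (1011 to 1097) and 1164 CPM in KO (1137 to 1192), or 3.25-fold and 2.31-fold above the background of 324 and 503 CPM. The Gsdmc and Cyp2c class came next among them with 514 and 700.5 CPM, then the Cftr and Htr4 class with 424 and 666 CPM. Both classes were above the background in both libraries, by 1.59-fold and 1.39-fold and by 1.31-fold and 1.32-fold. The unnamed nuclei held 615 CPM in WT and 895 CPM in KO, above the Gsdmc and Cyp2c class in both libraries, and in KO the 104 nuclei of unnamed cluster 3 were at 1278 CPM (1140 to 1429), which overlapped the absorptive class.

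Goblet-like nuclei were the reverse. Their Muc3 level, 251 CPM in WT and 304 CPM in KO, was 0.773 and 0.603 times the background, and is read as background. Background nuclei above their median depth were at 262 CPM in WT and 388 CPM in KO. Thinned to 1000 UMIs, 21.0% and 27.7% of goblet-like nuclei held a Muc3 UMI, fewer than the 30.3% and 45.0% of background nuclei, against 58.4% and 62.1% of absorptive-like nuclei. The share of all Muc3 UMIs that fell in absorptive-like nuclei was 35.2% in WT and 43.5% in KO, where these nuclei held 16.7% and 25.4% of all UMIs.

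The neighbouring Gm3054 had the same 3 leading classes as Muc3. It was at 237 CPM in WT and 369.7 CPM in KO absorptive-like nuclei, 184 and 251 CPM in the Gsdmc and Cyp2c class, and 31.3 and 43.6 CPM in goblet-like nuclei, beside 33.8 and 64.1 CPM in the background nuclei. The near-copy Muc3a did not follow Muc3. Its level was 89.0 and 72.9 CPM in absorptive-like, 96.2 and 67.1 CPM in goblet-like and 136 and 123 CPM in cycling nuclei.

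Muc4, a very large mucin that can act as a ligand of ErbB2, had 305 UMIs (23.0 CPM) in WT and 1170 UMIs (49.6 CPM) in KO. Goblet-like nuclei held 56.1% of these molecules in WT and 60.5% in KO. Their level was 90.8 CPM in WT (77.7 to 106) and 141 CPM in KO (131 to 152), or 14.8-fold and 6.14-fold above the background of 6.15 and 23.0 CPM. In absorptive-like nuclei, where Muc13 and Muc3 peaked, Muc4 was at 9.49 and 13.5 CPM, which overlapped the background in WT and was 0.589 times it in KO.

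Stem-like and cycling nuclei came next among the named classes, and unnamed nuclei were at 17.1 CPM in WT and 41.7 CPM in KO. Stem-like nuclei had 15 WT and 71 KO UMIs (22.7 and 61.4 CPM), and cycling nuclei 29 and 122 UMIs (17.9 and 63.1 CPM). The intervals of these levels overlapped each other within each library and were above the background in both. In WT, however, the larger cycling cluster, cluster 6, overlapped the background. Enteroendocrine-like nuclei, with 8 and 15 UMIs (17.4 and 19.1 CPM), overlapped the stem-like and cycling classes in WT and lay below them in KO. Thinned to 1000 UMIs, a Muc4 UMI was found in 8.05% of WT and 13.0% of KO goblet-like nuclei, 1.56% and 6.41% of cycling nuclei and 2.71% and 3.45% of stem-like nuclei, beside 0.711% and 2.19% of background nuclei.

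Muc1, the signaling mucin of many glandular epithelia, had 52 UMIs (3.92 CPM) in WT and 82 UMIs (3.47 CPM) in KO. Goblet-like nuclei held 48.1% and 58.5% of them. The level there, 13.3 CPM in WT (8.60 to 19.6) and 9.56 CPM in KO (7.05 to 12.7), was 4.32-fold and 5.41-fold above the background, which itself rested on 6 and 3 UMIs. Without thinning Muc1 was found in 3.19% of WT and 3.85% of KO goblet-like nuclei, at median depths of 2538 and 4616.5 UMIs, beside 0.711% and 0.493% of the shallower background nuclei. Thinned to 1000 UMIs it was found in 1.01% of WT and 0.730% of KO goblet-like nuclei, or 6 and 7 nuclei with overlapping intervals, and in 3 and 0 background nuclei, so no order of the libraries is read from these shares. No other epithelial-like class was above the background in either library.

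Muc20, which overlaps Muc4 on the other strand, had 2 UMIs in WT and 4 in KO, or 0.151 CPM (0.0183 to 0.545) and 0.169 CPM (0.0462 to 0.434). No class could be told from another at this depth. In WT absorptive-like nuclei its count was 0 UMIs. A limit of 3 UMIs for a count of 0, which is not the exact interval and lies below its upper bound, corresponds to 1.36 CPM there.

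Per kilobase of gene span, which is a crude length correction for a 3′ assay of nuclei, the levels over all nuclei kept Muc13 first (63.4 CPM per kilobase in WT and 73.8 in KO) and Muc3 second (34.7 and 47.2). The Muc3 values rest on the GENCODE span of 14.4 kilobases, beyond which its RefSeq start lies, and depend on that choice. Muc1 and Muc4 were close, at 0.907 and 0.803 for the short gene Muc1 and 0.495 and 1.07 for the long gene Muc4. Muc20 was at 0.00754 and 0.00847.

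Within the classes, the members differed between clusters. The absorptive class had 2 clusters: cluster 5, led by Slc9a3, Ceacam20 and Slc26a3, and cluster 7, led by Clca4a, Car4, Aqp8 and Saa1. Muc13 was at 1936 CPM in WT and 2328 CPM in KO in cluster 5, and at 5027 and 4317 CPM in cluster 7. Muc3 was at 716 and 806 CPM in cluster 5 and at 1401 and 1521 CPM in cluster 7. Both mucins were thus higher in cluster 7 in each library, with intervals that did not overlap.

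The goblet class had 3 clusters: cluster 4, led by Slc12a8, Spdef and Reg4, cluster 12, led by St6gal1, Scin, Capn9 and Best2, and cluster 9, led by Clca1, Fcgbp, Zg16 and Tff3. Muc13 was at 1064 and 1182 CPM in cluster 4, 1519 and 1538 CPM in cluster 12 and 3596 and 2883 CPM in cluster 9. Of the Muc1 UMIs of the goblet class, 19 of 25 in WT and 41 of 48 in KO were in cluster 9, out of 52 and 82 Muc1 UMIs over all nuclei. Muc4 varied less, with 89.2 and 130.0 CPM in cluster 4, 78.9 and 113 CPM in cluster 12 and 97.5 and 169 CPM in cluster 9. In WT the intervals of Muc4 in these clusters overlapped. In KO the level in cluster 9, on 321 UMIs, lay above the interval of cluster 4 (115 to 147).

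The cycling class also had 2 clusters. In cluster 18 Muc2 was at 2066 CPM in WT and 1177 CPM in KO, against 329.6 and 443 CPM in cluster 6. Muc4 was likewise higher in cluster 18, at 55.2 and 141 CPM against 12.7 and 46.4 CPM in cluster 6, with 11 and 48 UMIs behind the cluster 18 values. In cluster 6 Muc4 overlapped the background in WT (2.06-fold, 0.94 to 4.69) and was above it in KO (2.02-fold, 1.35 to 3.06). Muc13 was alike in both clusters, between 1069 and 1202 CPM over the 4 values.

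**Figure D2:**
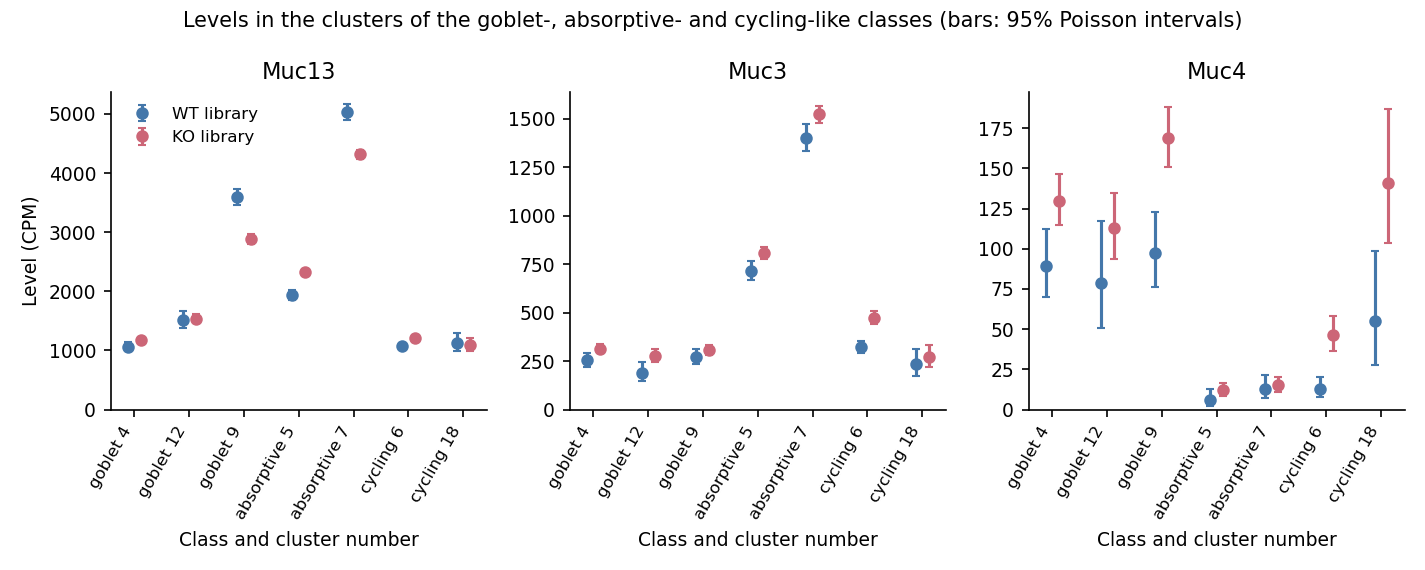
Level of Muc13, Muc3 and Muc4 (CPM, linear axes from 0) in the clusters of the goblet-, absorptive- and cycling-like classes, WT in blue and KO in red, with exact Poisson intervals. Muc13 is highest in absorptive cluster 7 (5027 CPM in WT) and goblet cluster 9 (3596 CPM), Muc3 in absorptive cluster 7 (1401 CPM), and Muc4 in the goblet clusters and cycling cluster 18.

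Muc13 and Muc3 shared the absorptive peak but not the goblet one, and the ratio of their UMIs set the goblet class apart from the others. In absorptive-like nuclei there were 3.28 Muc13 UMIs per Muc3 UMI in WT (3.13 to 3.44) and 2.85 in KO (2.78 to 2.93). In goblet-like nuclei there were 8.55 in WT (7.77 to 9.43) and 6.27 in KO (5.94 to 6.62), and in cluster 9 alone 13.3 and 9.38. The absorptive ratio overlapped that of cycling nuclei in both libraries. The 5 background classes lay between 2.03 and 2.89 in WT and between 1.41 and 1.97 in KO, and the intervals of these classes overlapped each other in WT. The ratio was lower in KO in all 7 epithelial-like classes, by non-overlapping intervals in each but the stem- and enteroendocrine-like ones. It was also lower in KO in the pooled background nuclei, at 2.50 in WT (2.28 to 2.75) and 1.73 in KO (1.59 to 1.88). In unnamed nuclei it was at 2.22 and 1.69.

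**Figure D3:**
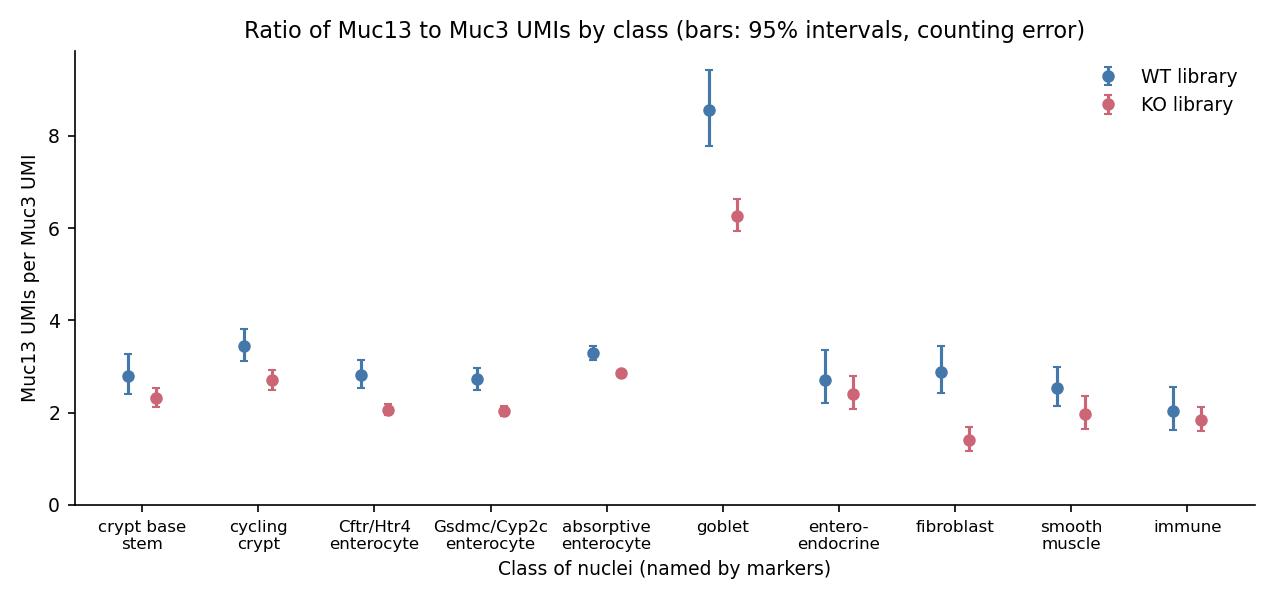
Number of Muc13 UMIs per Muc3 UMI (linear axis from 0) in 10 classes of nuclei, WT in blue and KO in red, with intervals for counting error. Goblet-like nuclei stand at 8.55 in WT and 6.27 in KO, and the other classes between 1.41 and 3.45.

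In single nuclei thinned to 1000 UMIs, Muc13 and Muc3 were found together in 52.5% of WT and 58.1% of KO absorptive-like nuclei. In the goblet-like class this held for 16.6% and 20.9%. Among absorptive-like nuclei with a Muc3 UMI 89.9% and 93.7% held Muc13, against 83.1% and 86.2% of those without. Among goblet-like nuclei with a Muc4 UMI 77.1% and 76.8% held Muc13, against 77.6% and 76.9% of those without. Muc4 and Muc13 were thus found side by side in goblet-like nuclei about as often with as without each other.

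Across the 10 classes and 2 libraries (20 points that share libraries and free RNA), Pearson's r of log2(CPM + 10) was 0.60 between Muc3 and Muc13, 0.69 between Muc1 and Muc4, and -0.24 between Muc3 and Muc4. Among 10971 genes with at least 200 UMIs, the gene most like Muc13 was Pls1 (r = 0.97), the plastin that bundles actin in microvilli, followed by Stk25, Omp, Gm49431 and Kif13b. The gene most like Muc3 was Dmbt1 (0.96), a secreted scavenger receptor of the mucosa, followed by Themis3, Ly75, Endod1 and Nudt4. Muc4 was most like Slc12a8 (0.90), followed by Fam13a, Anxa13, Galnt10, an enzyme that starts O-linked glycans, and Reg4, a secreted lectin of the gut epithelium. Slc12a8 and Reg4 are also leading genes of goblet cluster 4.

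The comparison of the genotypes asks whether the loss of HIF-1α in NKp46+ cells went with a different mucin coat after chronic DSS. A gene with at least 50 UMIs in both libraries together was counted as higher or lower where it differed by 1.5-fold. Over all nuclei 1 of the 4 members with enough UMIs, Muc4, was higher in KO, beside 13.3% of all genes, and none was lower, beside 16.5% of all genes. Muc4 was 2.15-fold higher (log2 ratio 1.11, 0.92 to 1.29), Muc3 1.36-fold (0.44, 0.40 to 0.48), Muc13 1.16-fold (0.22, 0.20 to 0.24) and Muc1 0.886-fold (-0.17, -0.69 to 0.36).

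The make-up of the libraries differed as well, and how far it accounts for these ratios was not tested. With the same share of each class in both, the log2 ratio of Muc13 was -0.0033, that of Muc3 0.36 and that of Muc4 0.89.

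Muc4 was past 1.5-fold in the 3 named classes where it was highest, and in the Cftr and Htr4 class. In goblet-like nuclei it was at 90.8 CPM in WT and 141 CPM in KO, or 1.55-fold higher (log2 0.63, 0.39 to 0.88), and was the 1 member of 4 past 1.5-fold, beside 11.0% of all genes. Its lower bound was under 1.5-fold. The KO level was higher in each of the 3 goblet clusters, 1.46-fold in cluster 4, 1.43-fold in cluster 12 and 1.73-fold in cluster 9, although in cluster 12 the interval of the log2 ratio (-0.12 to 1.21) held 0. In cycling nuclei the log2 ratio was 1.82 (1.22 to 2.45), where 13.0% of all genes were higher and Muc4 was 1 of 3 members tested. In stem-like nuclei it was 1.43 (0.62 to 2.34), but 0.35 after thinning to 1000 UMIs per nucleus.

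The background of Muc4 differed as well, with 12 UMIs in WT and 39 in KO non-epithelial-like nuclei, a log2 ratio of 1.90 (0.94 to 2.97). In the Cftr and Htr4 class, whose Muc4 level overlapped the background in both libraries, the log2 ratio was 0.98 (0.05 to 2.01), and it was 0.068 without integration, 0.55 in nuclei with 2000 to 5000 UMIs and 0.50 with the background subtracted per nucleus, each of which ended the call. Subtracting the background gave a goblet ratio of 0.48 when done per CPM and 0.58 when done per nucleus. Both were under 1.5-fold, so the goblet call did not hold after either subtraction. In absorptive-like nuclei Muc4 had 21 and 81 UMIs and a log2 ratio of 0.51 (-0.20 to 1.28).

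Muc3 was past 1.5-fold in the stem-like class (1.60-fold, log2 0.68, 0.47 to 0.90) and the Cftr and Htr4 class (1.57-fold, log2 0.65, 0.50 to 0.80). With Muc4 this made 2 of 3 members higher in each, beside 18.2% of all genes in the stem-like and 13.3% in the Cftr and Htr4 class. The median gene of the stem-like class was itself shifted by 0.16, and relative to it Muc3 was at 0.52, which is under 1.5-fold, and Muc4 at 1.27. In the Cftr and Htr4 class Muc3 was at 0.57 relative to the median gene, also under 1.5-fold. Over the alternatives Muc3 ranged from 0.55 (median of ratios) to 3.06 (background subtracted per nucleus) in the stem-like class. In the Cftr and Htr4 class it ranged from 0.50 (resolution 2) to 1.29 (background subtracted per nucleus), so neither call held throughout. No cluster was named stem-like at resolution 0.5 or without integration, so the stem-like range leaves these settings out. In the class where Muc3 is highest, the absorptive-like one, it was 1.11-fold higher in KO (log2 0.14, 0.08 to 0.21), and no member of 3 passed 1.5-fold, beside 10.3% of all genes. The neighbouring Gm3054 was at 237 and 369.7 CPM in that class and at 106 and 189 CPM over all nuclei. Muc3a was at 89.0 and 72.9 CPM and at 98.4 and 86.0 CPM. The Muc3 ratios are thus those of 1 counted feature of the locus. No member passed 1.5-fold in the Gsdmc and Cyp2c class (2 tested, beside 11.8% of all genes, Muc3 1.36-fold) or in enteroendocrine-like nuclei (2 tested, beside 10.5%).

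The Muc3 of the background moved in the same direction. In non-epithelial-like nuclei Muc3 was at 324 CPM in WT and 503 CPM in KO, 1.55-fold higher, and with Muc4 it made 2 of 3 members higher, beside 13.9% of all genes. Muc2, which these nuclei should lack, was 1.60-fold higher there, at 484 and 773 CPM, while Muc13 was at 812 and 869.8 CPM (1.07-fold). The 13 goblet markers summed to 1513 CPM in WT and 2517 CPM in KO in fibroblast-like, 1508 and 2513 CPM in smooth muscle-like and 1795 and 3725 CPM in immune-like nuclei, with 2 of them at 0 in WT immune-like nuclei and none at 0 otherwise. The part of free RNA in the ratios of the epithelial-like classes was not tested. With the background taken off per CPM, Muc3 in absorptive-like nuclei turned to -0.14, and with the background taken off per nucleus it stayed at 0.14.

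Muc13 went different ways in different nuclei. It was higher in KO in stem-like nuclei, at 1332 against 1002 CPM (log2 0.41, 0.28 to 0.54, or 0.25 relative to the median gene), and lower in goblet-like nuclei, at 1904 against 2145 CPM (log2 -0.17, -0.23 to -0.12). The goblet difference lay in cluster 9, with a log2 ratio of -0.32 (-0.39 to -0.25), while cluster 4 was at 0.15 (0.04 to 0.26) and cluster 12 at 0.02 (-0.13 to 0.17). In the absorptive class a near-level sum (log2 -0.06, -0.09 to -0.02) was made of a higher cluster 5 (0.27, 0.20 to 0.34) and a lower cluster 7 (-0.22, -0.27 to -0.17). None of these reached 1.5-fold as measured. In stem-like nuclei, whose Muc13 level was 1.23-fold the background in WT and 1.53-fold in KO, the log2 ratio moved to 1.28 with the background subtracted per CPM and to 2.03 with it subtracted per nucleus.

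**Figure D4:**
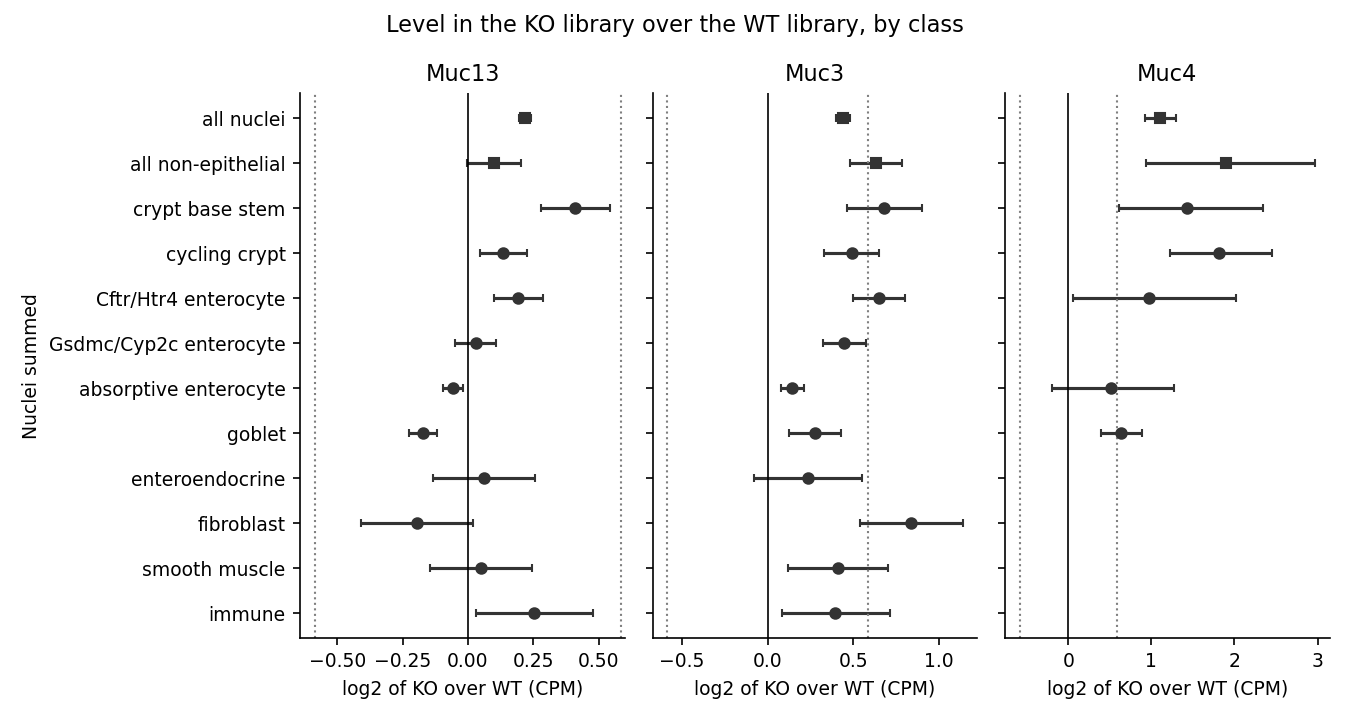
Log2 ratio of the CPM in KO over WT for Muc13, Muc3 and Muc4, over all nuclei and all non-epithelial-like nuclei (squares) and by class (circles), with exact intervals for counting error. The solid line marks 0 and the dotted lines 1.5-fold, rows with under 50 UMIs are left blank, and the x axes differ: Muc4 lies at 1.11 over all nuclei, Muc3 at 0.44 and Muc13 at 0.22.

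Muc1 in goblet-like nuclei, at 25 WT and 48 KO UMIs, had a log2 ratio of -0.47 (-1.20 to 0.28), so a difference in either direction was not detectable at this depth. Muc20 was too low for a ratio.

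Genes that work with the membrane mucins were read in the same way. Of 16 genes of the brush border scaffold and its cytoskeleton, 7 were at least 1.5-fold higher in KO over all nuclei (13.3% of all genes) and none lower (16.5%), where the KO library also held more absorptive-like nuclei, with a median log2 ratio of 0.53 against -0.01 over all genes. In absorptive-like nuclei 2 of the 15 tested were higher, near the 10.3% of all genes, the myosin Myo7b at 151 and 247 CPM and Plekhg6 at 9.03 and 25.2 CPM. The median log2 ratio of the list within this class was 0.35, against -0.07 over all genes. In goblet-like nuclei 1 of 14 was higher, where 11.0% of all genes were, namely Cdhr5, a mucin-like protocadherin that links microvilli, at 69.1 and 106 CPM. The median of the list there was 0.22, against 0.04 over all genes.

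Of 15 binding partners and sheddases of membrane mucins, 3 of the 14 tested over all nuclei were higher, the receptors Erbb3 and Met and the galectin Lgals3, which binds mucin sugars, and 1, the protease Mmp14, was lower. Over all genes 13.3% were higher and 16.5% lower. Lgals3 was higher in absorptive-like nuclei (348 and 680.2 CPM) and in goblet-like nuclei (148 and 304 CPM). Erbb2, the partner of Muc4, was at 58.4 and 61.6 CPM over all nuclei. The list's median log2 ratio was 0.04 over all nuclei, 0.01 in absorptive-like nuclei, where 3 of 13 were higher and 1 lower (10.3% and 14.9% of all genes), and 0.03 in goblet-like nuclei, where 2 of 13 were higher and 1 lower (11.0% and 10.7%).

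Of 17 transcription factors of colonocytes and inflammation, 2 were higher over all nuclei, Cdx1 and Epas1, and 1 was lower, Foxa2, beside 13.3% and 16.5% of all genes, with a median of 0.21. These shares are near or under those of all genes. In goblet-like nuclei Cdx1 was higher (70.7 and 117 CPM), and Cdx2, Elf3 and Foxa2 were lower, beside 11.0% and 10.7% of all genes. In absorptive-like nuclei 1 was higher, Epas1, and 1 lower, Foxa2, beside 10.3% and 14.9%. Of 14 other mucins and mucin-like genes 6 could be compared over all nuclei. None was higher and 3 were lower, beside 16.5% of all genes, the endothelial sialomucins Emcn and Podxl and the mesothelial Muc16. Endothelial-like nuclei made up 1.62% of WT and 0.702% of KO nuclei, and the part of this in the sums was not tested. Muc2 was at 1054 and 1236 CPM over all nuclei and at 4412 and 3784 CPM in goblet-like nuclei.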

How the data were processed

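Nuclei of frozen colon were profiled with the 10x Genomics 3′ v3.1 kit. The authors had run Cell Ranger 7.0.1 on mm10 and deposited UMI counts per gene for the barcodes called by default. Whether introns were counted is not given in the sources used here. Of 4896 WT and 4772 KO barcodes, nuclei with 400 to 5000 detected genes and at most 10% mitochondrial UMIs were kept (13259430 and 23605502 UMIs). The upper limit was the sole step against doublets, and no doublet caller was run.

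Libraries were integrated in Seurat 5.3.0 (R 4.3.3) with canonical correlation anchors, 2000 variable features without the 5 members, 30 components, resolution 1 and seed 1. A cluster took the class whose markers had the highest mean log2 ratio over other nuclei (10 CPM added), with at least 3 markers at a log2 ratio of 1 in 10% of its nuclei, and with no other class having more markers among its 10 leading genes. These thresholds were set with the data seen. The members, gene lists and markers were chosen with earlier results of these data known.

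UMIs were summed per class and library and given as CPM with exact Poisson intervals, shares with exact Clopper-Pearson intervals, and ratios with exact conditional intervals (Python 3.11.15, numpy 2.4.6, scipy 1.17.1, pandas 2.3.3, matplotlib 3.10.9). The script was tested on simulated data. Genes named are the 5 members, the genes of 4 fixed lists (other mucins, brush border scaffold and cytoskeleton, binding partners and sheddases, transcription factors), the 5 genes most like each member with at least 200 UMIs, and leading genes of clusters. Gm3054 was named after its values were seen. Promoters are from RefSeq on GRCm38.p6 and matched all 5 members, and genes were placed with GENCODE M21. Alternatives changed the nuclei used, depth, weighting, scaling, make-up, clustering and background.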

Additional observations from a re-analysis of the deposited data

Results flagged for a closer look

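Muc13 moved in opposite directions in 2 classes of nuclei. The log2 ratio of KO over WT was 0.41 in crypt base stem-like nuclei and -0.17 in goblet-like nuclei, and neither interval held 0. With 1 library per genotype the difference between the classes was not tested. Relative to the median gene of each class the ratios were 0.25 and -0.21. With nuclei assigned by their own marker score they were 0.20 and -0.32. With the non-epithelial CPM subtracted they were 1.28 and -0.37, and with the non-epithelial UMIs per nucleus subtracted 2.03 and -0.11. No cluster was named stem-like at resolution 0.5 or without integration, so the stem-like ratio had 9 alternatives and the goblet-like ratio 11. Over these, the stem-like ratio ranged from 0.20 to 2.03 and the goblet-like ratio from -0.37 to -0.07.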

How the results depend on the processing

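No paired analysis was possible because each genotype had 1 library and no test was made, and no library could be left out for the same reason. The values are log2 ratios of KO over WT. Among the alternatives for the main results, 67 moved a value by less than its counting interval (or a count by less than 1.5 times), 27 by more and 3 turned its direction. Muc4 in goblet-like nuclei ranged from 0.48 to 0.73, and was under 1.5-fold with either subtraction of the non-epithelial level. Alternatives chosen after seeing the data were the use of nuclei with 2000 to 5000 UMIs, the removal of unnamed clusters and both subtractions of the non-epithelial level.

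Over all nuclei, an equal make-up of classes gave 0.36 for Muc3, 0.89 for Muc4 and -0.0033 for Muc13. Epithelial-like classes alone gave 0.90 for Muc4 and 0.10 for Muc13. Nuclei with 2000 to 5000 UMIs gave 0.57 for Muc3 and 0.084 for Muc13. For Muc13, thinning gave 0.19, scaling by the median of ratios 0.24 and removal of unnamed clusters 0.19. A minimum of 200 UMIs left 1141 genes higher and 1399 lower, against 1914 and 2377, since fewer genes were tested.

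Muc13 in goblet-like nuclei was at -0.24 with resolution 2, -0.32 with nuclei assigned by their own marker score, -0.11 with each nucleus weighted equally and -0.069 without the deepest 10% of nuclei. Subtraction gave -0.37 per CPM and -0.11 per nucleus.

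In absorptive-like nuclei, Muc3 was at 0.036 without integration, 0.22 thinned, 0.23 with the median of ratios and -0.14 with the non-epithelial CPM subtracted. Muc13 there was at -0.10 with resolution 2, -0.28 without integration, -0.16 by own marker score, -0.12 thinned and 0.026 with the median of ratios. It was at -0.0069 without the deepest 10% of nuclei, and subtraction gave -0.11 per CPM and -0.014 per nucleus. The causes of these shifts were not tested. Depth limits Muc1 and Muc20, and Muc4 outside goblet-like nuclei.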
